A study of Mus musculus with 3 samples.

Results

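Fc receptors are the surface proteins with which blood leukocytes bind the constant part of antibodies. The 7 genes described here encode receptors, or receptor subunits, of B cells and myeloid cells: Fcmr, Fcer2a, Fcgr2b, Fcgr3, Fcgr4, Fcer1a and Fcer1g. They were taken by gene symbol and are 7 of the 32285 genes in the count tables. All 7 had at least 1 UMI (a unique molecular identifier, which tags 1 captured transcript) in kept cells of the aged+AA and aged libraries, and 6 of the 7 had one in the young library.

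Antibody-bound targets signal through these receptors in opposite senses. Fcgr3, Fcgr4 and Fcer1a encode ligand-binding chains that reach the surface and signal with the FcRγ chain encoded by Fcer1g, which carries an activating ITAM motif. Fcgr2b encodes the inhibitory IgG receptor, whose ITIM motif recruits the phosphatase SHIP1, and it is the classical Fcγ receptor of B cells. Fcer2a encodes CD23, a lectin-type IgE receptor of follicular B cells, and Fcmr encodes the receptor for IgM.

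The cells were peripheral blood mononuclear cells of C57BL/6 mice, captured with droplet-based 3′ single-cell RNA sequencing. There were 3 libraries, 1 per group: aged mice given AA for 1 month (aged+AA, where the series title gives AA as ascorbic acid), aged mice given PBS for 1 month (aged) and young mice given PBS for 1 month (young). The sample labels call the older mice aged, whereas the series title calls them middle-aged. How many mice each library holds, the ages in numbers and the AA dose are not given in the sources used here. With 1 library per group no difference below has a replicate check: no test between groups was possible, and every interval is a 95% interval for counting error only. The aged library enters both comparisons, aged+AA over aged and aged over young.

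After cell calling and filtering, 11087 aged+AA, 9765 aged and 8729 young cells were kept, with a median of 4056, 3610 and 4448 UMIs per cell. Cells were sorted into classes by marker genes, none of which is a member of the family. B-gated cells numbered 5370, 4352 and 2472, NK-gated cells 223, 301 and 359, and non-classical monocyte-gated cells 102, 443 and 50 in the aged+AA, aged and young libraries. Classical monocyte-gated cells numbered 21, 670 and 3, neutrophil-gated cells 178, 870 and 14, and basophil-gated cells 24, 120 and 0 in the same order of libraries. The aged library thus held most of the myeloid cells, and classes with fewer than 50 cells in either library were described but not compared. Every marker of these 6 classes was detected in its class, and no class had a marker of another class among its 10 leading genes. The cells were sorted by these same markers, so this is no independent check of the classes. Neutrophil-gated cells were 8.91% of the aged library although the labels name mononuclear cells. Any 2 libraries shared 21 to 29 cell barcodes.

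The genes lie close together. In GRCm38 with the GENCODE M21 annotation, 6 of the 7 are on chromosome 1, and Fcgr2b (chr1:170958617-170976547, minus strand), Fcgr4 (chr1:171018920-171029761, plus strand), Fcgr3 (chr1:171051174-171064935, minus strand) and Fcer1g (chr1:171229572-171234365, minus strand) form a cluster of 276 kb. Fcer1a is at chr1:173221284-173227214 on the minus strand, Fcmr at chr1:130865669-130880791 on the plus strand and Fcer2a at chr8:3681737-3694175 on the minus strand. Fcgr2b and Fcgr3 are paralogs, and 118 of the 3839 words of 91 bases in Fcgr2b transcripts (3.07%) and 62 of 1627 in Fcgr3 transcripts (3.81%) also occur in transcripts of other genes. None of the shared words lay in the last 500 bases of a transcript, the end that a 3′ library reads. A gene on the opposite strand at Fcgr2b, Gm38204, had 1, 0 and 1 UMIs in the aged+AA, aged and young libraries.

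The 250 bases before the first listed RefSeq transcript start (GRCm38.p6), which need not be the outermost start, are shown for 4 members. These are the ones in which a search on both strands found the PU.1 letters, and their highest levels lay in different cell classes. Capitals mark GAGGAA, core letters bound by PU.1 of myeloid and B cells, and GATAA, core letters bound by GATA factors such as GATA2 of basophils. A match on the opposite strand reads TTCCTC for the first and reads, as printed, TTATC for the second. The windows are Fcgr3 at chr1:171059404-171059653 on the minus strand, Fcgr4 at chr1:171018676-171018925 on the plus strand, Fcer1a at chr1:173227230-173227479 on the minus strand and Fcmr at chr1:130865527-130865776 on the plus strand.
Fcgr3: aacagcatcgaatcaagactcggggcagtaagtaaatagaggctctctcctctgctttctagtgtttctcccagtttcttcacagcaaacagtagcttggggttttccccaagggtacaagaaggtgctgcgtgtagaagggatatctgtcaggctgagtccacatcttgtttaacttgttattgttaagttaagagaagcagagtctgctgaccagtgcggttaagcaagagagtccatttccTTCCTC
Fcgr4: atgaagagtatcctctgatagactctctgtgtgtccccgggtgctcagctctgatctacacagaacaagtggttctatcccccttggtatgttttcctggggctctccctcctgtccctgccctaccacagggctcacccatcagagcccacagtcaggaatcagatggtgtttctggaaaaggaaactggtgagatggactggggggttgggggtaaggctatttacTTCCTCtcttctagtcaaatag
Fcer1a: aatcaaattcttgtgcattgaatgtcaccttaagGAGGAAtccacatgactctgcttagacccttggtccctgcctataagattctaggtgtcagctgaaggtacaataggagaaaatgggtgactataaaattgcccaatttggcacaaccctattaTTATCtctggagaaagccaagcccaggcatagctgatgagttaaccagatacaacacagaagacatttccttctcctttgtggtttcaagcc
Fcmr: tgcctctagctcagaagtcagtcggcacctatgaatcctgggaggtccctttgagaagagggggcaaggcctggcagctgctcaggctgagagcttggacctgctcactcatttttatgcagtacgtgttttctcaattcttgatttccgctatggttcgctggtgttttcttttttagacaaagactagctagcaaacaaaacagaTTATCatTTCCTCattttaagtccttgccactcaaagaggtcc

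GAGGAA began at position -6 relative to the start in Fcgr3, -22 in Fcgr4, -216 in Fcer1a and -36 in Fcmr, and GATAA began at -92 in Fcer1a and -43 in Fcmr. No 2 matches overlapped. The Fcgr3 window lies inside the GENCODE span of its gene, and those of Fcgr4 and Fcmr reach into theirs. Neither set of letters occurs in the same window of Fcer1g, Fcgr2b or Fcer2a. Among all 27025 promoter windows of this length, 23.1% hold GAGGAA and 23.0% hold GATAA, so a match is common and is given only as a description. Spi1, the gene of PU.1, was read at 1313, 1065 and 1156 CPM in non-classical monocyte-gated cells, 101, 80.0 and 80.8 CPM in B-gated cells and 4.95, 7.81 and 0 CPM in NK-gated cells of the aged+AA, aged and young libraries. CPM are a gene's UMIs scaled to a total of 1000000 UMIs over the summed cells of a class.

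Fcmr and Fcer2a were the B-cell members. B-gated cells held 95.8%, 94.0% and 93.1% of all Fcmr UMIs in kept cells of the aged+AA, aged and young libraries, and 96.1%, 94.9% and 93.6% of all Fcer2a UMIs. B-gated cells of the aged+AA library had the highest level of both genes, and those of the aged library had the lowest level of Fcmr.

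Fcmr, the IgM receptor gene, had 811 CPM (95% interval 799 to 823, 17681 UMIs) in aged+AA B-gated cells, 547 CPM (536 to 559, 9163 UMIs) in aged ones and 693 CPM (677 to 710, 6878 UMIs) in young ones. The 3 intervals were apart, with the aged+AA library on top. The ratio of aged+AA over aged was 1.48 (1.44 to 1.52), just short of the 1.5-fold used here to count a gene as different, and that of aged over young was 0.790 (0.765 to 0.815). Across all genes compared in B-gated cells the median log2 ratio was -0.05 for aged+AA over aged and 0.16 for aged over young, against 0.57 and -0.34 for Fcmr. Over 11 other processing settings the Fcmr ratio lay between 1.41 and 1.56 for aged+AA over aged, on both sides of 1.5, and between 0.708 and 0.821 for aged over young.

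The same order appeared in the share of cells. After each cell was thinned to 1000 UMIs, 52.4% of aged+AA, 41.8% of aged and 47.5% of young B-gated cells had an Fcmr UMI. T-gated cells, a class not known for the receptor and used as the background of free RNA, had shares of 0.610%, 0.559% and 0.150%. Median depth before thinning was 3577, 3122.5 and 3433.5 UMIs in B-gated cells and 5496, 4696 and 4992 in T-gated cells. Without thinning, 88.0%, 77.3% and 83.3% of B-gated cells had an Fcmr UMI. B-gated cells with at least 5 Fcmr UMIs numbered 1347, 499 and 470 and held 55.5%, 35.3% and 49.8% of the gene's UMIs in this class.

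The aged library, lowest in Fcmr, was also extreme in other measures, although aged+AA and young cells did not keep their order. Haemoglobin genes, which are red-cell genes, took 31923, 102204 and 17588 CPM of B-gated sums in the aged+AA, aged and young libraries. In the median B-gated cell the haemoglobin fraction was 2.22%, 3.03% and 1.17% of that in free RNA. It was thus at most that share of the cell's UMIs, under the summed level in each library. The haemoglobin UMIs were therefore spread unevenly over the cells. The myeloid genes S100a8, S100a9 and Lyz2 together took 67.5, 366 and 9.47 CPM. The part of either measure in the Fcmr difference was not tested. With ribosomal, mitochondrial and haemoglobin genes left out of the total, the Fcmr ratios were 1.41 and 0.814. In B-gated cells without a UMI of those 3 myeloid genes, Fcmr was at 811, 569 and 694 CPM, with ratios of 1.42 and 0.821. Lists of 3 to 6 B-subset genes also shifted in B-gated cells. For aged over young their median log2 ratios were 1.09 (age-associated), 0.78 (B-1 and memory), 0.32 (follicular) and -0.007 (transitional). In the same order they were -0.23, -0.57, -0.20 and -0.32 for aged+AA over aged. The part of B-subset makeup in the levels of the members was not tested.

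Fcer2a, the CD23 gene, had 277 CPM (270 to 284, 6031 UMIs) in aged+AA B-gated cells, 230 CPM (223 to 238, 3853 UMIs) in aged ones and 211 CPM (202 to 220, 2093 UMIs) in young ones. Its levels lay closer together than those of Fcmr, and the aged library was in the middle. The ratio was 1.20 (1.15 to 1.25) for aged+AA over aged and 1.09 (1.03 to 1.15) for aged over young. Relative to the median of all genes, the second ratio turned to 0.978. Thinned shares were 24.1%, 20.7% and 19.4% in B-gated cells, against 0.271%, 0.279% and 0.132% in T-gated cells.

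**Figure D1:**
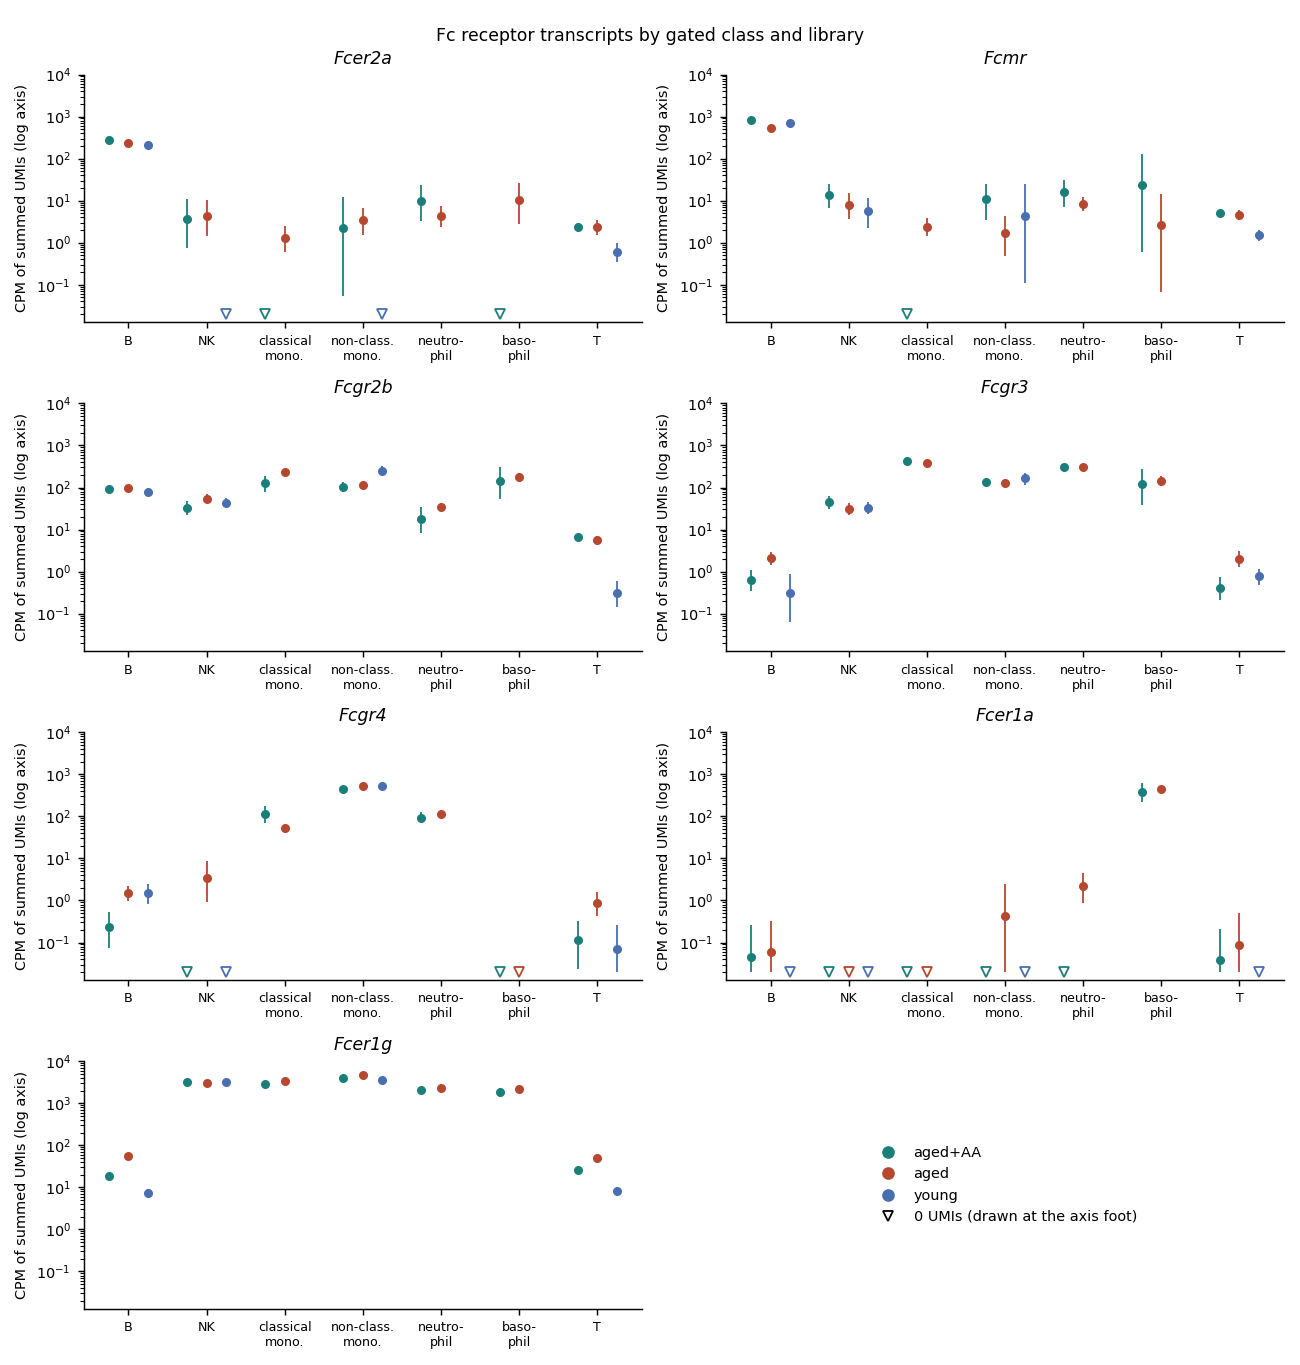
Level of each Fc receptor gene (CPM of summed UMIs, log axis) in each marker-gated class, with 1 point per library and bars for the 95% Poisson interval. Fcmr and Fcer2a stand in B-gated cells, Fcer1a in basophil-gated cells and Fcer1g highest in NK and myeloid classes, while classes under 20 cells are not drawn and open triangles mark 0 UMIs.

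Fcgr2b, the inhibitory IgG receptor gene, was read in B-gated cells and in every myeloid class. In B-gated cells it had 93.2 CPM (89.2 to 97.4, 2033 UMIs) in the aged+AA library, 95.1 CPM (90.5 to 99.9, 1592 UMIs) in the aged library and 80.3 CPM (74.8 to 86.1, 797 UMIs) in the young library. The aged+AA and aged libraries overlapped and the young one was lower. The ratio of aged+AA over aged was 0.980 (0.918 to 1.05), and other settings put it between 0.919 and 1.03. For aged over young it was 1.18 (1.09 to 1.29), between 1.06 and 1.22 under other settings. Relative to the median of all genes it was 1.06. Thinned shares were 7.88%, 9.09% and 7.53% in B-gated cells, against 0.588%, 0.605% and 0.0188% in T-gated cells.

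Monocytes carried more Fcgr2b than B cells in the aged library. In the aged library, the one with enough cells of each class, classical monocyte-gated cells had 238 CPM (226 to 249, 1666 UMIs), which was 2.50 times (2.33 to 2.68) the B-cell level. Non-classical monocyte-gated cells had 118 CPM, 0.496 times (0.434 to 0.564) the classical level. Basophil-gated cells had 179 CPM (139 to 226, 69 UMIs), 0.752 times (0.582 to 0.956) the classical level. In the aged+AA library classical monocyte-gated cells had 126 CPM (78.9 to 191, 22 UMIs) and non-classical ones 105 CPM (77.2 to 139). Both intervals overlapped that of B-gated cells there, 89.2 to 97.4. Young non-classical cells, at 249 CPM (188 to 322), lay above young B-gated cells.

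Non-classical monocyte-gated cells of the young library stood above those of the other libraries. Fcgr2b had 105 CPM (77.2 to 139, 48 UMIs) in aged+AA cells, 118 CPM (104 to 133, 273 UMIs) in aged cells and 249 CPM (188 to 322, 57 UMIs) in young cells of this class. The intervals of aged+AA and aged cells overlapped, and the young interval lay apart from both. The ratio of aged over young was 0.474 (0.355 to 0.642), between 0.464 and 0.537 over 7 other settings, and that of aged+AA over aged was 0.889 (0.640 to 1.21). The young value rests on 50 cells.

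In NK-gated cells Fcgr2b was low, at 33.4 CPM (27 UMIs) in aged+AA, 54.7 CPM (63 UMIs) in aged and 43.6 CPM (55 UMIs) in young cells. The ratio of aged+AA over aged was 0.611 (0.374 to 0.974), and that of aged over young was 1.25 (0.86 to 1.83), whose interval holds 1. Neutrophil-gated cells had 18.0 CPM (9 UMIs) in the aged+AA library and 35.2 CPM (111 UMIs) in the aged library. Their ratio was 0.513 (0.229 to 1.01).

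The location of the transcripts shifted with the cells each library held. B-gated cells held 83.1% of Fcgr2b UMIs in the aged+AA library, 36.0% in the aged library and 78.8% in the young library. Classical monocyte-gated cells held 37.7% of them in the aged library. Summed over all kept cells, Fcgr2b stood at 45.2, 89.8 and 22.9 CPM, values that mix the level per cell with the number of myeloid cells.

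**Figure D2:**
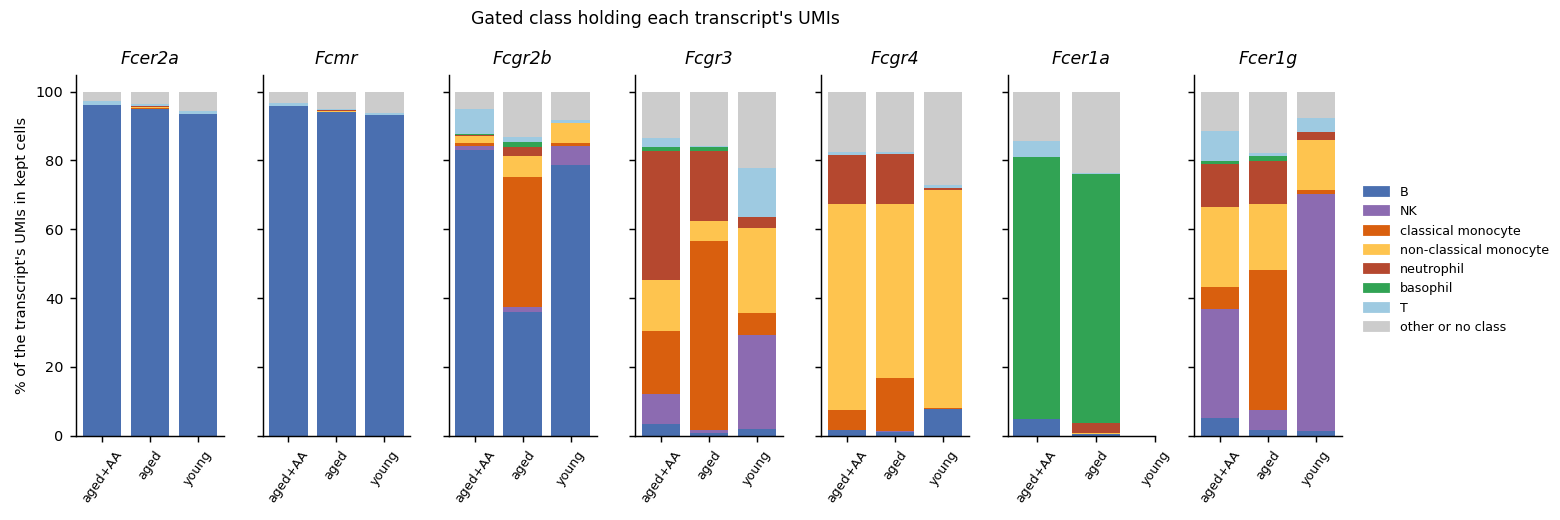
Share of each gene's UMIs in kept cells (percent, stacked) that came from each marker-gated class, with 1 bar per library and other or ungated cells in grey. Fcgr2b UMIs were mostly from B-gated cells in the aged+AA (83.1%) and young (78.8%) libraries and from B-gated (36.0%) and classical monocyte-gated (37.7%) cells in the aged library.

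T-gated cells were not free of Fcgr2b. They had 6.73 CPM (177 UMIs) in the aged+AA library, 5.49 CPM (62 UMIs) in the aged library and 0.317 CPM (9 UMIs) in the young library. The free RNA expected in these cells from their haemoglobin UMIs was 0.898, 1.53 and 0.142 CPM. The T-gated cells were then split by CD8 and CD4 genes and by Ccl5, a chemokine gene of effector and memory T cells, a split chosen after these values were seen.

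In the aged+AA and aged libraries most Fcgr2b UMIs of T-gated cells lay in CD8 cells with Ccl5, 146 of 177 and 37 of 62, against 4 of 9 in the young library. These CD8 cells had 13.1 CPM (11 to 15.4, 146 UMIs in 1546 cells) in the aged+AA library, 10.2 CPM (7.18 to 14.1, 37 UMIs in 595 cells) in the aged library and 1.23 CPM (0.334 to 3.14, 4 UMIs in 438 cells) in the young library. The aged+AA and aged intervals overlapped, and the young one lay below both. Aged over young stood at 8.31 (2.99 to 32.1), and that of aged+AA over aged was 1.28 (0.887 to 1.89). CD8 cells without a Ccl5 UMI had 1.26 CPM (6 UMIs), 0.571 CPM (1 UMI) and 0 CPM (0 UMIs), and CD4 cells had 2.42, 2.55 and 0.935 CPM. In CD8 cells with Ccl5 and no B-cell or myeloid marker UMI, the levels were 13.5, 10.3 and 1.40 CPM on 93, 7 and 4 UMIs.

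**Figure D3:**
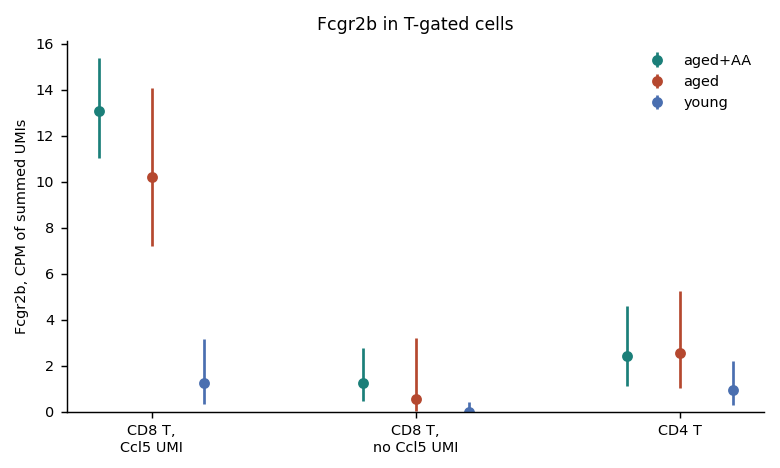
Level of Fcgr2b (CPM of summed UMIs) in T-gated cells of each library, split into CD8 cells with a Ccl5 UMI, CD8 cells without one and CD4 cells, with bars for the 95% Poisson interval. CD8 cells with Ccl5 were at 13.1 CPM in aged+AA, 10.2 CPM in aged and 1.23 CPM in young libraries, and no other subset passed 2.55 CPM.

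Fcgr3 and Fcgr4, the activating IgG receptor genes, had their highest levels in different myeloid classes. Fcgr3 was highest in classical monocyte-gated cells, with 429 CPM (337 to 538, 75 UMIs in 21 cells) in the aged+AA library and 373 CPM (359 to 388, 2616 UMIs) in the aged library. Neutrophil-gated cells had 307 CPM (260 to 359) in the aged+AA library and 303 CPM (284 to 323) in the aged library. Non-classical monocyte-gated cells had 133 CPM in aged+AA, 125 CPM in aged and 166 CPM in young libraries, with overlapping intervals. Neutrophil-gated cells exceeded non-classical ones 2.30 times (1.70 to 3.15) in the aged+AA library and 2.43 times (2.13 to 2.78) in the aged library. Basophil-gated cells of the aged library had 145 CPM (110 to 188).

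NK cells use the Fcgr3 product, CD16, for antibody-dependent killing. NK-gated cells had 44.6 CPM (31.2 to 61.7, 36 UMIs) in aged+AA, 31.3 CPM (21.9 to 43.3, 36 UMIs) in aged and 33.3 CPM (24.0 to 45.0, 42 UMIs) in young libraries. The intervals of the 3 libraries overlapped, with ratios of 1.43 (0.873 to 2.33) for aged+AA over aged and 0.938 (0.584 to 1.5) for aged over young. T-gated cells had 0.418, 2.04 and 0.775 CPM.

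Fcgr4 marked non-classical monocytes. Their level was 439 CPM (380 to 503, 201 UMIs) in aged+AA, 526 CPM (496 to 556, 1218 UMIs) in aged and 541 CPM (450 to 645, 124 UMIs) in young cells. The aged and young libraries overlapped and the aged+AA library was lowest, at 0.834 times (0.715 to 0.969) the aged level, and between 0.718 and 0.849 times over 11 other settings. Aged over young gave 0.972 (0.808 to 1.18). Thinned shares were 33.3%, 43.1% and 44.9% of non-classical monocyte-gated cells, against 0.0226%, 0.0466% and 0.0188% of T-gated cells.

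Below non-classical monocytes, the class order of Fcgr4 was clear in the aged library and not in the aged+AA library. In the aged library the non-classical level was 9.85 times (8.76 to 11.1) the classical one of 53.4 CPM, and 4.67 times (4.15 to 5.28) the neutrophil one of 112 CPM. In the aged+AA library it was 4.65 times (3.37 to 6.54) the neutrophil level of 94.2 CPM (69.2 to 125). Classical monocyte-gated cells there, 21 in number, had 114 CPM (69.9 to 177), overlapping the neutrophil interval. Of the 20 Fcgr4 UMIs in those classical cells, 2 cells held 10. Neutrophil-gated cells of the aged+AA and aged libraries differed by less than the counting error, at a ratio of 0.838 (0.605 to 1.14). Basophil-gated cells of the aged library had no Fcgr4 UMI, which allows up to 7.77 CPM at 3 counts. NK-gated cells had 0, 4 and 0 UMIs, where 0 UMIs allow up to 3.71 CPM in the aged+AA and 2.38 CPM in the young library.

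The balance of the inhibitory Fcgr2b against the activating Fcgr3 therefore differed between classes. Capture can differ between the genes, so the share of Fcgr2b in their joint UMIs is compared between classes and not read as a ratio of proteins. In B-gated cells it was 99.3% in aged+AA, 97.8% in aged and 99.6% in young libraries. Non-classical monocyte-gated cells had 44.0% (34.5 to 53.9), 48.6% (44.4 to 52.8) and 60% (49.4 to 69.9), and classical ones had 38.9% (37.4 to 40.4) in the aged library. Neutrophil-gated cells were lowest, with 5.56% (2.57 to 10.3) in the aged+AA library and 10.4% (8.63 to 12.4) in the aged library. NK-gated cells had 42.9% (30.5 to 56.0), 63.6% (53.4 to 73.1) and 56.7% (46.3 to 66.7).

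Fcer1a, the IgE-binding chain of the high-affinity receptor FcεRI, was a basophil gene. Basophil-gated cells had 378 CPM (216 to 614, 16 UMIs in 24 cells) in the aged+AA library and 461 CPM (396 to 534, 178 UMIs in 120 cells) in the aged library, with overlapping intervals. They held 76.2% of the gene's 21 UMIs in the aged+AA library and 72.4% of its 246 UMIs in the aged library. Most of the remaining UMIs, 58 in the aged library, lay in cells that no gate took. After thinning, 22.7% and 34.5% of basophil-gated cells of these libraries had an Fcer1a UMI, against 1 of 4424 and 0 of 2147 T-gated cells. The young library had no basophil-gated cell among 8729, which allows a share of up to 0.0344%, and no Fcer1a UMI, which allows up to 0.0678 CPM over all kept cells. Ms4a2, the β chain of the same receptor and no member of the family, had 544 and 619 CPM in basophil-gated cells of the aged+AA and aged libraries.

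Fcer1g, the shared signalling chain, was high in NK and in every myeloid class. In NK-gated cells it had 3159 CPM (3038 to 3284) in aged+AA, 2992 CPM (2893 to 3094) in aged and 3155 CPM (3058 to 3255) in young libraries, with a median of 11 UMIs per cell in each. The aged library was the lowest by a small margin, with ratios of 1.06 (1.00 to 1.11) and 0.948 (0.906 to 0.993). Counted as UMIs per cell, the ratios were 0.999 and 1.03, on the other side of 1. After thinning, 92.2%, 92.0% and 93.6% of NK-gated cells had an Fcer1g UMI, against 2.10%, 3.68% and 0.545% of T-gated cells.

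Among myeloid classes Fcer1g was highest in non-classical monocyte-gated cells. Their level was 4027 CPM (3846 to 4215, 1846 UMIs) in aged+AA, 4760 CPM (4671 to 4849, 11030 UMIs) in aged and 3658 CPM (3415 to 3915, 839 UMIs) in young cells. The 2 comparisons ran in opposite directions, with 0.846 (0.805 to 0.889) for aged+AA over aged and 1.30 (1.21 to 1.40) for aged over young, and the aged library was on top under all other settings run. The all-gene median log2 ratio in this class was 0.12 and -0.05. Classical monocyte-gated cells of the aged library had 3349 CPM (3306 to 3392). Neutrophil-gated cells had 2029 CPM (1906 to 2158) in the aged+AA library and 2278 CPM (2225 to 2331) in the aged library. Their ratio was 0.891 (0.833 to 0.951). Basophil-gated cells had 1821 CPM (1437 to 2276) and 2191 CPM (2046 to 2343) in these libraries, with overlapping intervals.

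Over all kept cells Fcer1g stood at 148 CPM in aged+AA, 1174 CPM in aged and 130 CPM in young libraries, an order that followed the number of myeloid cells. NK-gated cells held 31.9% of its UMIs in the aged+AA library and 68.9% in the young library. In the aged library classical monocyte-gated cells held 40.7% of them, non-classical ones 19.1% and neutrophil-gated cells 12.5%.

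B-gated cells had little Fcer1g, with the aged library highest and the young library lowest, the same order as for S100a8, S100a9 and Lyz2 in these cells. It had 18.3 CPM (16.5 to 20.1, 398 UMIs) in aged+AA, 54.8 CPM (51.3 to 58.5, 918 UMIs) in aged and 7.15 CPM (5.59 to 9.02, 71 UMIs) in young B-gated cells. T-gated cells of the same libraries had 25.9, 49.8 and 8.03 CPM, so that B-gated cells were at 0.704 (0.621 to 0.798), 1.10 (0.990 to 1.23) and 0.891 (0.673 to 1.17) times the T level. Free RNA, measured in barcodes without cells, held 177, 1019 and 189 CPM of Fcer1g, and the part expected in B-gated cells was 3.94, 30.9 and 2.22 CPM, and in T-gated cells 2.96, 22.8 and 1.72 CPM. T-gated cells were above this expected part in each library and were no empty class for Fcer1g. CD8 T-gated cells with Ccl5 had 21.6, 38.3 and 18.4 CPM, and those without it had 3.997, 34.3 and 1.98 CPM. CD4 T-gated cells had 3.23, 33.5 and 2.62 CPM. The intervals of these subsets overlapped in the aged library, while CD8 cells with Ccl5 lay apart and above in the aged+AA and young libraries. B-gated cells with at least 5 Fcer1g UMIs, 24, 21 and 6 in number, held 46.0%, 36.3% and 64.8% of the UMIs. In B-gated cells without a UMI of S100a8, S100a9 or Lyz2 the levels were 16.1, 36.6 and 5.02 CPM. The Fcer1g ratios in B-gated cells, 0.333 (0.295 to 0.375) for aged+AA over aged and 7.67 (6.02 to 9.90) for aged over young, stand beside these values, whose part in the result was not tested.

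Fcgr3 and Fcgr4 in B-gated cells rested on few UMIs. Fcgr3 had 14, 35 and 3 UMIs (0.642, 2.09 and 0.302 CPM), and the part expected from free RNA was 0.145, 1.83 and 0.0500 CPM. T-gated cells had 0.418, 2.04 and 0.775 CPM of it. With that part subtracted and 0.5 added to each count, the ratio of aged+AA over aged turned to 1.79, and aged over young stood near 1, at 0.959. Fcgr4 had 5, 25 and 15 UMIs (0.229, 1.49 and 1.51 CPM), against 0.114, 0.886 and 0.0704 CPM in T-gated cells, and 1 young B-gated cell held 11 of the 15. The part of Fcgr4 expected from free RNA was 0.134, 1.03 and 0.0667 CPM. Over 10 other settings, subtraction among them, the Fcgr4 ratio lay between 0.139 and 0.268 for aged+AA over aged. For aged over young it lay between 0.290 and 3.54. The part of free RNA in these low levels was not tested beyond the subtraction.

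**Figure D4:**
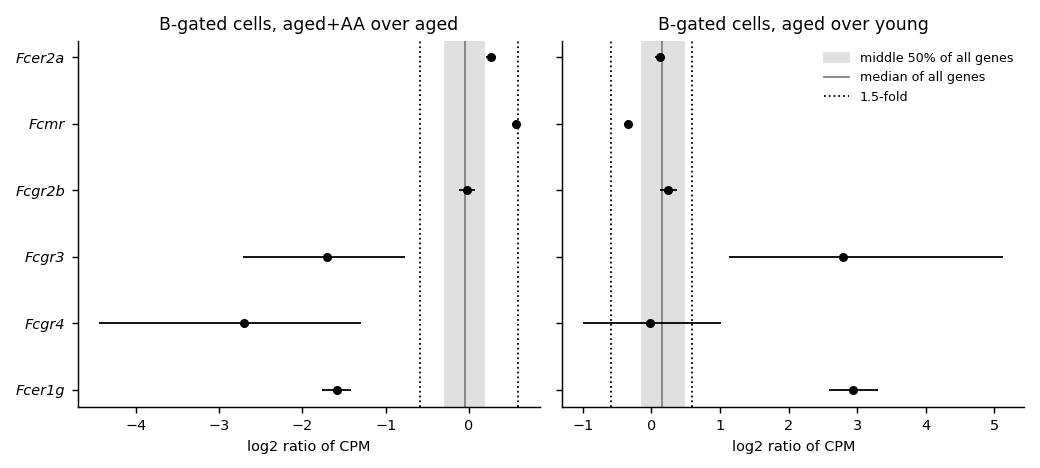
Log2 ratio of CPM in B-gated cells for 6 members, with 95% intervals, for aged+AA over aged (first panel) and aged over young (second panel). The grey band holds the middle 50% of all genes compared and the dotted lines mark 1.5-fold. Fcer1g and Fcgr3 lie beyond the lines in opposite directions in the 2 panels, Fcgr4 does so for aged+AA over aged alone, and Fcmr, Fcer2a and Fcgr2b lie inside them.

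Counted together, a gene was called different where its ratio passed 1.5-fold and both libraries together had at least 20 UMIs. In B-gated cells 3 of 6 members passed for aged+AA over aged, all lower (Fcer1g, Fcgr3 and Fcgr4), where 14.3% of 11867 genes passed, 5.33% higher and 8.99% lower. For aged over young 2 of 6 members passed, both higher (Fcer1g and Fcgr3), where 25.6% of 11336 genes passed, 18.3% higher and 7.30% lower. The members' median log2 ratios were -0.81 and 0.18, against -0.05 and 0.16 for all genes. Without B-gated cells that held myeloid UMIs, a choice made after seeing the data, 1 member passed in each comparison. Fcmr, Fcer2a and Fcgr2b, the members with the highest levels in B-gated cells, did not pass in either comparison.

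In NK-gated cells 2 of 4 members passed for aged+AA over aged, Fcgr2b lower and Fcmr higher on 11 and 9 UMIs. Of all genes 20% passed there, 8.56% higher and 11.4% lower. None of 3 members passed for aged over young, where 24.0% of all genes passed, 14.7% higher and 9.30% lower. In non-classical monocyte-gated cells none of 4 members passed for aged+AA over aged, where 22.0% of all genes passed, 14.0% higher and 7.97% lower. For aged over young 1 of 4, Fcgr2b, was lower, where 33.2% of all genes passed, 15.8% higher and 17.4% lower. In neutrophil-gated cells 2 of 5 members passed for aged+AA over aged, Fcgr2b lower and Fcmr higher on 8 and 27 UMIs, where 30.1% of all genes passed, 15.5% higher and 14.6% lower. The Fcmr ratios, 1.74 (0.657 to 4.76) in NK-gated and 1.88 (0.736 to 4.24) in neutrophil-gated cells, have intervals that hold 1. Free RNA held 258 CPM of Fcmr in the aged+AA and 128 CPM in the aged library. The part expected from it was 6.59 of 13.6 CPM in aged+AA and 4.16 of 7.81 CPM in aged NK-gated cells. In neutrophil-gated cells it was 8.39 of 16.0 CPM and 5.02 of 8.55 CPM. The part of free RNA in these Fcmr ratios was not tested.

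Genes of proteins that carry Fc receptor signals were compared in B-gated cells in the same way. Of 16 genes of ITAM adaptors and signalling, 2 were higher and 3 lower for aged+AA over aged, where 14.3% of all genes passed. For aged over young 6 were higher and 2 lower, where 25.6% of all genes passed. The median log2 ratios of the 16 genes were -0.20 and 0.48, against -0.05 and 0.16 for all genes. The 5 that passed for aged+AA over aged were Tyrobp, Fgr and Lcp2 (lower) and Cd247 and Lat (higher), named after their values were seen and best known from myeloid, NK or T cells. Syk, the kinase that docks on phosphorylated ITAMs, had 364 CPM in aged+AA, 484 CPM in aged and 314 CPM in young B-gated cells, ratios of 0.751 and 1.54. Plcg2, the phospholipase downstream of it, had 66.0, 96.5 and 57.6 CPM, ratios of 0.684 and 1.67. Lyn, the kinase that phosphorylates ITAMs and ITIMs, was level at 206, 203 and 199 CPM. Tyrobp, an ITAM adaptor of myeloid and NK cells, had 29.2, 65.2 and 37.8 CPM, and the myeloid UMIs described above stand beside it.

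Of 13 inhibitory receptors and effectors, none was higher and 4 were lower for aged+AA over aged. Of all genes 5.33% were higher and 8.99% lower there. For aged over young 5 were higher and none lower, where 18.3% of all genes were higher and 7.30% lower. The median log2 ratios of the 13 genes were -0.05 and 0.41. Cd22, an inhibitory receptor of B cells, had 162 CPM in aged+AA, 251 CPM in aged and 103 CPM in young B-gated cells, with ratios of 0.648 (0.620 to 0.678) and 2.43 (2.27 to 2.60). Inpp5d, which encodes the SHIP1 phosphatase used by Fcgr2b, had 266, 253 and 191 CPM, ratios of 1.05 and 1.32. Ptpn6, the SHP-1 phosphatase gene, had 264, 246 and 211 CPM. Pilra, Cd300a and Lair1, the 3 others that were lower for aged+AA over aged, are receptors also found on myeloid cells and had at most 3.94 CPM in any B-gated sum.

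Of 10 other immunoglobulin receptor genes, 6 could be compared in B-gated cells. Of these, 1 was higher for aged+AA over aged and none passed for aged over young, where 14.3% and 25.6% of all genes passed. The 6 had median log2 ratios of -0.03 and 0.17. Fcrla, an intracellular B-cell relative of the Fc receptors, had 315, 279 and 356 CPM in aged+AA, aged and young cells, with a ratio of 0.784 (0.750 to 0.819) for aged over young. Fcrl1, the next by UMI total, had 92.1, 100 and 75.5 CPM. Pigr, the gene of the polymeric immunoglobulin receptor, was the 1 that passed, at 4.91, 1.91 and 1.61 CPM. Fcgr1, the high-affinity IgG receptor gene, was read in classical monocyte-gated cells of the aged library at 169 CPM (159 to 179). In non-classical monocyte-gated cells Fcgr1 had 2, 71 and 9 UMIs, and its ratio of aged+AA over aged was 0.142 (0.0169 to 0.534).

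The same lists were counted in the other classes against the shares of all genes given above. In NK-gated cells 1 of 11 ITAM genes passed for aged+AA over aged, Lcp2, which encodes the adaptor SLP-76 and had 49.5 CPM in aged+AA and 101 CPM in aged cells. For aged over young 2 of 12 ITAM genes were higher and 1 was lower, where 24.0% of all genes passed. Of 7 inhibitory genes in NK-gated cells, none passed for aged+AA over aged, and for aged over young Lair1 was higher, at 1.62 (0.971 to 2.75), and Dok2 lower. Dok2, which encodes an inhibitory adaptor, had 293 CPM in aged+AA, 209 CPM in aged and 374 CPM in young NK-gated cells, with a ratio of 0.559 (0.477 to 0.654) for aged over young. In non-classical monocyte-gated cells none of 12 ITAM genes passed in either comparison, and 2 of 10 inhibitory genes were higher for aged over young, Ptpn11 and Dok1. In neutrophil-gated cells 1 of 14 ITAM genes was higher and 3 were lower, and 1 of 12 inhibitory genes was higher and 2 were lower, for aged+AA over aged, near the 30.1% of all genes that passed.

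The genes whose levels ran most like each member were found over 17 sums, each of 1 class in 1 library, among 10704 genes. The sums of 1 library share its free RNA and depth, so Pearson's r of log2(CPM + 1) is a description. Fcmr ran most like Ebf1 (0.976), Scd1 (0.967) and Ly6d (0.963), and Fcer2a like Blk (0.970), Snn (0.964) and Hs3st1 (0.964). Fcer1a ran like Ms4a2 (0.995), Il6 (0.987) and Il4 (0.983), and Fcgr4 like Cd300ld (0.986), Gpr35 (0.977) and Gpr141 (0.977). Only the aged library gave a basophil sum, which held 178 of the 190 Fcer1a UMIs, so r for Fcer1a rests mainly on 1 sum. Fcgr3 ran like Trf (0.985), Itgam (0.965) and Fes (0.963), and Fcer1g like Itgam (0.985), Tyrobp (0.978) and Cd244a (0.975). Fcgr2b had looser matches in Atf6 (0.929), Napsa (0.926) and Ehd4 (0.919). Between members, r was 0.926 for Fcer2a and Fcmr, 0.934 for Fcer1g and Fcgr3, and 0.605 for Fcer1g and Fcgr4.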

How the data were processed

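Per the labels' protocols, blood mononuclear cells were separated by density and made into libraries with 10x Genomics 3′ v3 reagents. The count values are whole UMI counts per gene and barcode as deposited by the authors, unfiltered. They were written by Cell Ranger 4 per the file headers, and mm10 and Seurat 3.1.0 are named in the submitters' processing notes. The aligner settings and the use of strand are not given in the sources used here.

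Total UMIs were 80424480 (aged+AA), 94944551 (aged) and 64496639 (young). Barcodes were called as cells when their UMI total passed a threshold (the 99th percentile over the 5000 largest barcodes, divided by 10) or when they held at least 500 UMIs and differed from free RNA (barcodes ranked 45001 to 90000) in a multinomial test with 10000 draws at a false discovery rate of 0.01. Cells needed 250 genes and at most 10% mitochondrial UMIs, and Scrublet (scanpy 1.11.5) removed 469, 418 and 411 predicted doublets. A class needed 2 detected markers and a lead of 2 over the next class, and monocytes were split by classical against non-classical marker UMIs.

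UMIs were summed per class and library and scaled to CPM, with exact Poisson intervals. Ratios have exact conditional binomial intervals and shares have exact Clopper-Pearson ones. In counts of members past 1.5-fold and in the ratios under other settings, 0.5 was added to each count, and classes needed 50 cells in both libraries. The ratio step was tested on simulated counts with 200 changed genes. PCR errors and cell sampling are not covered, and the limit for a count of 0 is 3 counts. Expected free RNA in a class is the class's median haemoglobin fraction over that of free RNA, times the gene's free-RNA level. All members were named, and genes of the signalling lists were named by UMI total and by passing 1.5-fold, at most 4 per class and comparison, with Pilra, Cd300a and Lair1 added after their values were seen. The members and lists were chosen with earlier results of these data known. Alternatives changed cell calling, the mitochondrial limit, doublets, the gate, scaling, free RNA, the count minimum and thinning. The count minimum is among the settings counted for ratios, but it only sets which genes are compared and cannot change a ratio. Python 3.11.15, numpy 2.4.6, scipy 1.17.1, pandas 2.3.3 and matplotlib 3.10.9 were used. Promoter sequences are from RefSeq.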

Additional observations from a re-analysis of the deposited data

How the results depend on the processing

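No paired analysis was possible because each group is 1 library. The number of members past 1.5-fold in B-gated cells was 1 in place of 3 for aged+AA over aged, and 1 in place of 2 for aged over young, without cells that held S100a8, S100a9 or Lyz2 UMIs. In NK-gated cells it was 1 in place of 2 for aged+AA over aged under a 5% or 20% mitochondrial limit and without cells with B-cell UMIs. For aged over young it was 1 in place of 0 there with doublets kept or with a minimum of 5 UMIs. In non-classical monocyte-gated cells a minimum of 5 UMIs gave 1 in place of 0 for aged+AA over aged and 3 in place of 1 for aged over young. In neutrophil-gated cells that minimum gave 4 in place of 2, and leaving out cells with B-cell UMIs gave 1. A lower minimum admits more genes, and the cause of the other shifts was not tested.

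With free RNA subtracted and 0.5 added to each count, the Fcgr3 ratio in B-gated cells reversed to 1.79 for aged+AA over aged. For aged over young it was 0.959, a value just under 1 that rests on the added 0.5. Counted as UMIs per cell, 25 of 32 ratios stayed on the same side of 1, and relative to the median of all genes 27 of 32 did. Shares of cells with a UMI scaled with the depth kept: Fcmr in B-gated cells was at 32.6%, 24.3% and 27.7% when thinned to 500 UMIs in aged+AA, aged and young libraries. No comparison could be made in classical monocyte-gated or basophil-gated cells, or in neutrophil-gated cells for aged over young, at the minimum of 50 cells. Non-classical monocyte-gated cells of the young library fell under that minimum when cells were called by the UMI threshold alone, at 5% mitochondrial UMIs, with 3 markers or without cells with B-cell UMIs, so those 4 settings were not run for aged over young there.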

Other observations

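Neutrophil-gated cells differed in Fc receptor levels by their granule genes, in a split chosen after the data were seen. In the aged library, 85 cells with UMIs of all 3 of Ngp, Camp and Ltf, secondary granule genes of immature neutrophils, had 200 CPM of Fcgr3 (168 to 236). The 94 cells with 1 or 2 of these genes had 306 CPM (257 to 362), and the 691 cells with none had 338 CPM (313 to 365). Fcgr4 followed the same order, with 67.1 CPM (49.3 to 89.3), 88.1 CPM (63.0 to 120.0) and 134 CPM (118 to 151). Fcer1g ranged less, with 2054, 2210 and 2372 CPM. Median depth was 7594, 3107 and 2187 UMIs per cell in the 3 sets, so granule gene detection and depth cannot be told apart. In the aged+AA library 13 cells with all 3 genes had 190 CPM of Fcgr3 (115 to 297), and 162 cells with none had 339 CPM (283 to 402).

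Detection of the B-cell members in the same cells was compared. After thinning to 1000 UMIs, Fcer2a was found in 24.9% (23.3 to 26.6) of aged+AA B-gated cells with Fcmr and 23.3% (21.6 to 25.0) of those without it. The shares were 21.4% (19.5 to 23.4) and 20.2% (18.6 to 21.8) in the aged library, and 21.0% (18.7 to 23.4) and 17.9% (15.8 to 20.1) in the young library. Fcgr2b was found in 6.80% (5.24 to 8.65) of aged B-gated cells with Fcer2a and 9.69% (8.72 to 10.7) of those without it. In aged+AA cells the shares were 8.14% (6.71 to 9.77) and 7.79% (6.99 to 8.66), with overlapping intervals, and in young cells 9.0% (6.59 to 11.9) and 7.18% (6.09 to 8.41), the other way round from aged cells. In young cells with Fcmr, 6.23% (4.91 to 7.77) had Fcgr2b, against 8.71% (7.23 to 10.4) of those without it, again overlapping.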
